A study of Caenorhabditis elegans with 2 samples.

Results

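The gene egl-27 of Caenorhabditis elegans lies on the plus strand of chromosome II, at chrII:6835008-6847908 on the build ce11, and is 12.9 kb long. It was chosen by the number of CEH-36 peaks in its window of the optimal list, so that number and the crowding of its peaks are descriptions of the choice. Its members are all entries of the deposited peak lists whose summit, the base of highest signal, lay from 20 kb upstream of the gene to 5 kb past its end, a window of 37.9 kb. That gave 12 of the 1662 entries in the optimal list, the list the authors thresholded by irreproducible discovery rate (IDR), a procedure that sets a cut-off from how far ranks match between replicates. Pooled entries down to rank 1662 make up the optimal list, and single peaks in it can rank far apart in the replicates. It also gave 31 of 30000 entries in the list called on pooled replicates, 30 of 30000 in replicate 1 and 28 of 30000 in replicate 2.

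The chromatin came from whole embryos of the strain OP620 (unc-119(tm4063) III; wgIs620), which carries a transgene for CEH-36 fused at its C terminus to a GFP-FLAG tag. Both samples were early embryos of pooled sexes, collected 2 h after synchronization by egg bleaching, and sheared by sonication. The description in the labels gives an antibody to GFP, while their antibody field names ceh-36. The labels number the samples as biological replicates 1 and 2 of a single group. The peaks come from 1 transgenic line and from a mixture of all embryonic cells. No untagged strain or second condition was analysed here, and depth is unknown because the lists hold no read counts.

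EGL-27 belongs to the MTA family of chromatin regulators, whose members are subunits of NuRD-type nucleosome remodelling and histone deacetylase complexes. In C. elegans egl-27 is known for embryonic patterning, including the expression of Hox genes and the polarity of tail cells that depends on Wnt signals. CEH-36 is an Otx-class homeodomain factor known for its part in the fates of AWC and ASE sensory neurons. Factors of this class recognise the core TAATCC, read as GGATTA on the opposite strand.

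CEH-36 peaks spread along the upstream sequence and the body of egl-27 and did not sit at 1 promoter. Of the 12 optimal peaks, 7 lay upstream, 4 in introns, 1 in an exon and 0 past the end of the gene. Numbered along the chromosome, peaks 1 to 7 lay 8989 to 1134 bp before the first annotated start and peaks 8 to 12 lay 323 to 11858 bp after it. The 4 peaks with a TAATCC core within 100 bp of the summit were peaks 1, 6, 8 and 11. The sequences of these 4 peaks are printed because they carry the core, and peak 2 because it is the strongest peak without one. Each runs along the plus strand and is centred on the summit, from the WBcel235 reference genome of RefSeq, which is the same build as ce11. Capitals mark TAATCC or GGATTA and, in peak 2, the shorter run TAATC.
peak 11, chrII:6844876-6844976: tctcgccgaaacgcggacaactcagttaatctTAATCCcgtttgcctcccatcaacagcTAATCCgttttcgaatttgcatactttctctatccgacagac
peak 8, chrII:6835281-6835381: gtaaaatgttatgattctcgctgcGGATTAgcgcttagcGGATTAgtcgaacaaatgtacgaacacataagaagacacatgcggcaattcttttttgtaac
peak 6, chrII:6831796-6831856: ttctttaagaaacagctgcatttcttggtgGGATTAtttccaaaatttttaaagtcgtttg
peak 1, chrII:6825989-6826049: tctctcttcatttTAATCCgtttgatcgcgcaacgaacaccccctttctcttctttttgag
peak 2, chrII:6827513-6827573: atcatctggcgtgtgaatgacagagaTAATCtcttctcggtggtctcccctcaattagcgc

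Peaks 8 and 11 each held a pair of cores. In peak 8 both were on the minus strand, at chrII:6835305-6835310 and chrII:6835320-6835325, and began 15 bp apart. Around them the same 9 bases, CTAATCCGC on the strand of the core, occurred in both copies. In peak 11 both were on the plus strand, at chrII:6844908-6844913 and chrII:6844935-6844940, and began 27 bp apart. Peaks 1 and 6 held a single core each, at chrII:6826002-6826007 on the plus strand and at chrII:6831826-6831831 on the minus strand. The 6 cores, 3 on each strand, all lay with their centres within 24 bp of the summit.

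**Figure D1:**
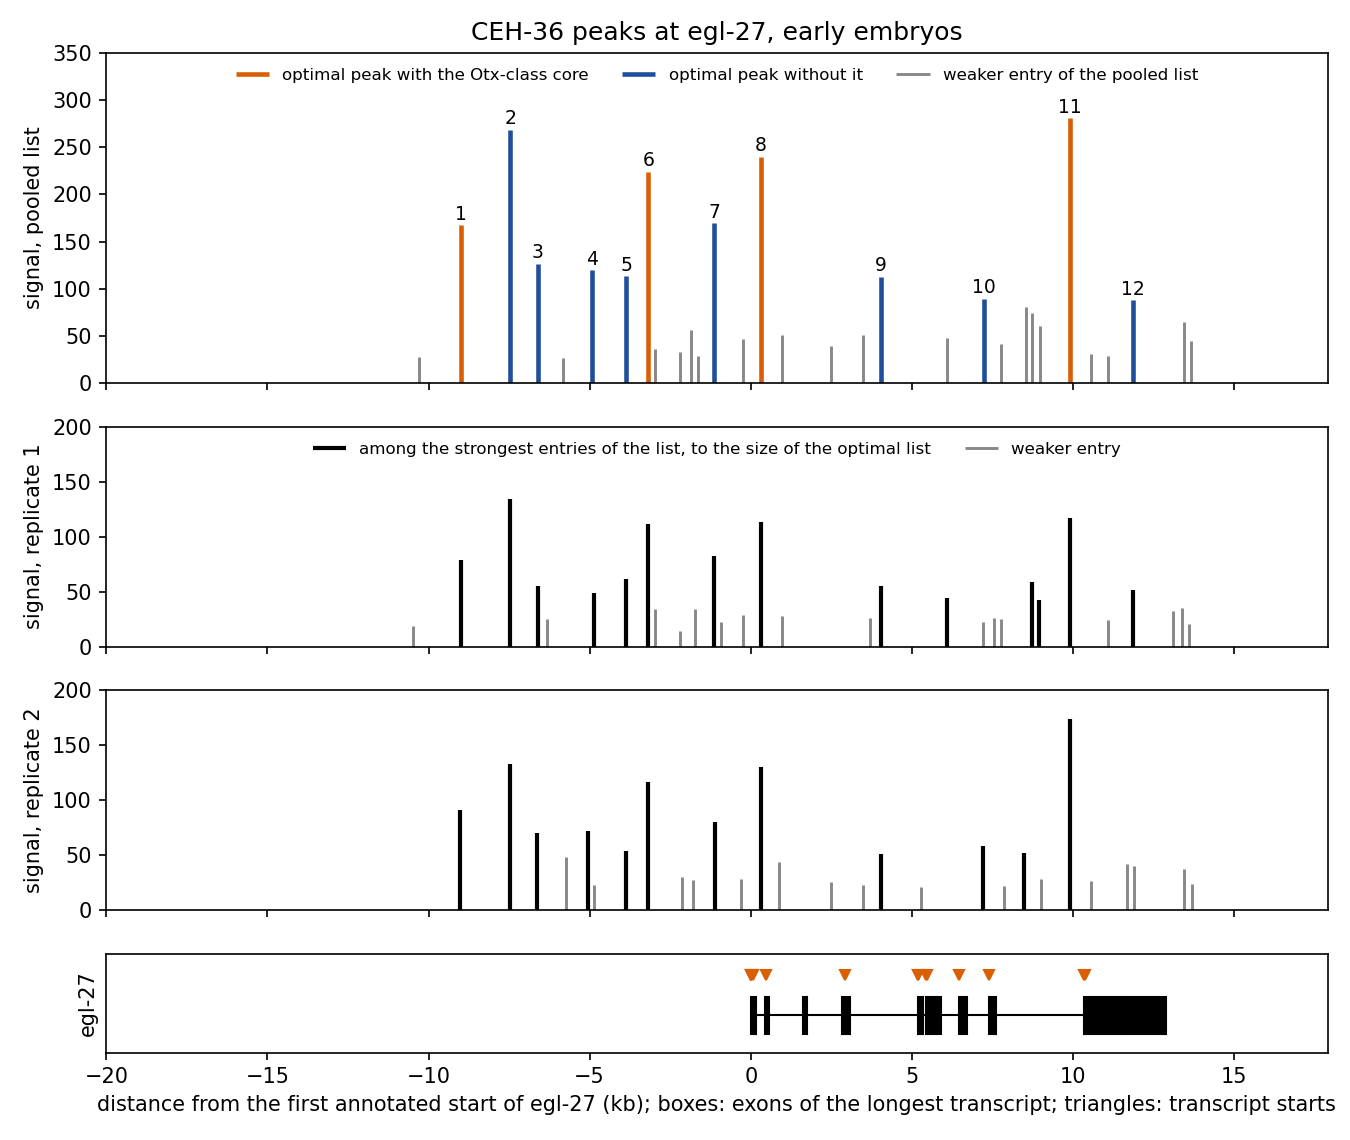
Entries of the peak lists along egl-27, by distance of the summit from the first annotated start in kb (x axis) and by the authors' signal value (y axes, each list on its own scale). The top panel is the list called on pooled replicates, with the 12 optimal peaks numbered, and the middle panels are replicates 1 and 2. The lowest panel shows the exons of the longest transcript and the 14 annotated transcript starts. Tall lines stand at peaks 2, 6, 8 and 11 in all 3 lists, and the 11.0 kb at the far upstream end of the window hold a single weak pooled entry.

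The strongest peak of the locus was peak 11, at chrII:6844863-6844968 in intron 10 of the longest transcript, the largest intron of that transcript at 2756 bp. Its summit lay 434 bp upstream of an internal transcript start at chrII:6845360. That start belongs to 1 of the 24 annotated transcripts and lies just before exon 11 of the longest transcript, which begins at chrII:6845362. The signal value in the optimal list was 280.8, which ranked 181 of 1662. In replicate 1 the signal was 117.0 at rank 210 of 30000, and in replicate 2 it was 174.1 at rank 138 of 30000. The summits of the replicates were 16 bp apart. Signal and rank are the authors' values per entry, and signals were compared only within a list.

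Peak 8 was the peak nearest to the first annotated start, at chrII:6835286-6835384 in intron 1 of the longest transcript, with its summit 323 bp inside the gene. The summit lay in an intron of 7 of the 24 annotated transcripts, and the others start downstream of it. The nearest start was 141 bp downstream of the summit, at chrII:6835472, which 4 of the 24 transcripts use. Its optimal signal was 239.9 at rank 252. The replicates ranked it closely, at 229 with a signal of 112.6 in replicate 1 and at 271 with a signal of 129.6 in replicate 2. Peaks 8 and 11 were the shortest intervals of the locus, 99 and 106 bp long, while the other 10 were each 390 bp long.

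Upstream of the gene, peaks 2 and 6 were the strongest. Peak 2, at chrII:6827348-6827737 and 7465 bp before the first start, came next after peak 11, with an optimal signal of 268.7, within the strongest 11.7% of the list. It ranked 159 in replicate 1, with a signal of 134.1, and 260 in replicate 2, with a signal of 133.1. Peak 2 held no TAATCC, but the shorter TAATC lay at chrII:6827539-6827543, with its centre 2 bp from the summit. Peak 6, at chrII:6831631-6832020 and 3182 bp before the start, had an optimal signal of 223.7 at rank 283. Its replicate signals were 110.7 at rank 241 in replicate 1 and 115.9 at rank 340 in replicate 2. The summits of these replicate entries were 2 bp apart in peak 2 and 1 bp apart in peak 6.

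Peaks 7 and 1 were of intermediate strength. Peak 7, at chrII:6833679-6834068 and 1134 bp before the start, had a signal of 169.3 at rank 496, with signals of 82.3 at rank 426 in replicate 1 and 79.9 at rank 664 in replicate 2. Peak 1, at chrII:6825824-6826213 and 8989 bp before the start, was the outermost. Its signal was 167.4 at rank 508, with 78.6 at rank 459 in replicate 1 and 91.3 at rank 517 in replicate 2.

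The remaining upstream peaks, 3, 4 and 5, were weaker but had an entry among the 1662 strongest of each replicate. Peak 3, at chrII:6828201-6828590, had a signal of 126.2 at rank 813, with 54.9 at rank 879 in replicate 1 and 70.3 at rank 857 in replicate 2. Peak 4, at chrII:6829883-6830272, had a signal of 119.4 at rank 895, with 48.9 at rank 1133 in replicate 1 and 71.7 at rank 825 in replicate 2. These strongest overlapping entries had summits 206 bp apart, while a weaker entry of replicate 2, with a signal of 22.7 at rank 14551, had its summit at chrII:6830149, near that of replicate 1 at chrII:6830155. Peak 5, at chrII:6830950-6831339, had a signal of 113.2 at rank 980, with 61.5 at rank 712 in replicate 1 and 53.3 at rank 1456 in replicate 2. Its replicate summits were 2 bp apart.

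The other 3 peaks inside the gene were weak. Peak 9, at chrII:6838849-6839238 in intron 5, had a signal of 112.5 at rank 991, with 55.1 at rank 874 in replicate 1 and 50.8 at rank 1637 in replicate 2. Peak 10, at chrII:6842058-6842447 in intron 9, lay 151 bp upstream of an internal transcript start at chrII:6842404. That start belongs to 1 of the 24 annotated transcripts and lies just before exon 10 of the longest transcript, which begins at chrII:6842410. The signal of peak 10 was 89.4 at rank 1555. The replicates differed there. Replicate 2 had an entry with a signal of 57.8 at rank 1233, while the strongest overlapping entry of replicate 1 had a signal of 25.8 at rank 6614, with a summit 292 bp from that of the peak. A nearer entry of replicate 1, 26 bp from the summit, had a signal of 22.3 at rank 9950.

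Peak 12 was the only optimal peak in an exon. It lay at chrII:6846671-6847060, with the summit in exon 12, which all 24 transcripts contain, and outside the annotated untranslated regions. Its signal of 87.6 ranked 1641 of 1662, close to the end of the optimal list, whose lowest signal was 87.2. Replicate 1 ranked it 1024 with a signal of 51.2 and replicate 2 ranked it 2790 with a signal of 41.5, at an entry whose summit was 183 bp from that of the peak. A nearer entry of replicate 2, 21 bp from the summit, had a signal of 40.4 at rank 2976. The q-value, a false discovery rate given by the authors' peak caller, was 0.00344 for 10 of the 12 peaks, 0.00547 for peak 10 and 0.00579 for peak 12.

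**Figure D2:**
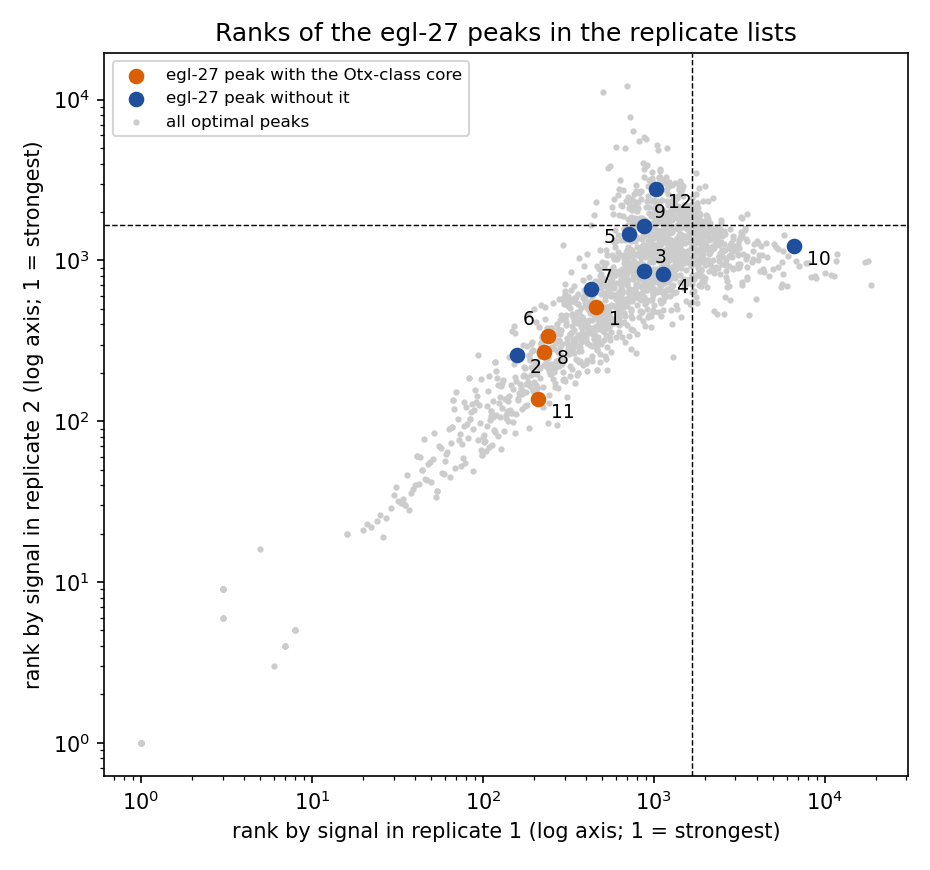
Rank by signal in replicate 1 (x axis) and replicate 2 (y axis) of the 12 egl-27 peaks (large points, numbered) and of all optimal peaks with an entry in both replicates (grey), on log axes with 1 as the strongest. Dashed lines mark rank 1662. Peak 10 lies right of the line for replicate 1, peak 12 lies above the line for replicate 2, and the other 10 peaks lie inside both.

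In all, 10 of the 12 peaks (83.3%) overlapped an entry among the 1662 strongest of both replicates, against 69.1% of all optimal peaks. The optimal list itself was made from the replicate lists, so this share describes the list and does not test the peaks. The median distance between the summits of the strongest overlapping replicate entries was 16 bp at egl-27 and 22 bp over the 1655 optimal peaks with an entry in both replicates. The median fold between the ranks of both replicates was 1.54 at egl-27 and 1.42 over those peaks. The median signal was 147 at egl-27, against 125 over the optimal list, and 7 of the 12 peaks were among its 831 strongest entries. The optimal list includes mitochondrial peaks and peaks at telomere-unit runs, tRNA genes and snoRNA genes, and no egl-27 peak is of these kinds. Away from them the median was 103 for peaks with TAATCC and 107 for peaks without it.

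Weaker entries of the pooled list lay upstream of the gene, inside it and past its end. Their q-values ran from 0.0118 to 0.811. The pooled list had 19 entries in the window besides the optimal ones, so that 12 of 31 pooled entries (38.7%) were optimal, against 5.54% of all pooled entries. The gene was picked for its optimal peaks, so a high share follows from the choice. The strongest of the others lay in intron 10. Their summits were at chrII:6843544, with a signal of 80.4 at pooled rank 1985, and at chrII:6843752, with a signal of 74.0 at rank 2419. These stand just outside the threshold, with peaks 10 and 12 just inside it. Both replicates had entries there among their 1662 strongest, at rank 762 with the summit at chrII:6843752 in replicate 1 and at rank 1565 with the summit at chrII:6843501 in replicate 2. A snoRNA gene, C04A2.16, lies in the same intron, 389 bp from the summit in replicate 1 and 138 bp from that in replicate 2. The pooled summit at chrII:6843544 also lay within 200 bp of it, the distance used here for a snoRNA gene peak. No optimal peak of the window lay within 200 bp of a snoRNA gene or 500 bp of a tRNA gene, and none held a run of the telomere unit. The peak nearest to that snoRNA gene was peak 10, at 987 bp.

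The upstream peaks lay in the part nearer to the gene. The 18.6 kb between the neighbouring gene snt-1, which encodes a synaptotagmin of synaptic vesicles, and egl-27 held the 7 upstream peaks in its last 9.0 kb. Farther out there was 1 pooled entry, with a signal of 28.1 at rank 25366. Of the 7 upstream peaks, 5 (peaks 2, 3, 4, 6 and 7) overlapped an annotated non-coding RNA gene with their interval, and 0 of the 5 peaks inside egl-27 did. The summits of peaks 2 and 6 lay in no annotated gene, so only other parts of their intervals overlapped. Over the window the share by interval was 41.7%, against 23.6% of all optimal peaks and 14.7% away from repeats and small RNA genes. Annotated non-coding RNA genes covered 28.3% of the 9.0 kb between peak 1 and the gene. No transcription was measured, so whether these RNAs were made in the embryos was not tested.

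Homeodomain cores were counted within 100 bp of the summit, on both strands. TAATCC was at 4 of the 12 egl-27 peaks (33.3%), against 41.6% of all optimal peaks, 7.34% and 6.5% of windows of the same width 500 bp to the left and to the right of all optimal summits, and 17.9% of pooled entries that overlapped no optimal peak. Among optimal peaks away from repeats and small RNA genes, the class of all 12 egl-27 peaks, the share was 46.7% (373 of 798). In the flanks of the egl-27 peaks 1 of 12 windows on the left and 1 of 12 on the right held it. Among the 19 weaker entries of the egl-27 window 1 held it at the summit. The window held 16 copies of TAATCC in all, of which 6 lay at the optimal summits, whose windows covered 6.36% of its length. Another 2 lay at the weaker entry 1631 bp before the start, with a signal of 28.2. The other 8 lay at no summit of the pooled list.

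The 4 peaks with the core were among the stronger of the locus. Their signals were 167.4 in peak 1, 223.7 in peak 6, 239.9 in peak 8 and 280.8 in peak 11, with a median of 232. The 8 peaks without it had signals of 87.6 to 269 with a median of 116, and peaks 2 and 7 among them reached into the range of the peaks with the core. Over all optimal peaks away from repeats and small RNA genes the medians were close together, at 103 for the 373 peaks with the core and 107 for the 425 without. With 4 and 8 peaks at a single gene chosen for its peaks, the difference at egl-27 is a description and has no test.

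Other motifs were counted in the same windows. CTAATCC, the core with the preceding base of the pair in peak 8, was at 2 of the 12 peaks (peaks 8 and 11), against 25% of all optimal peaks. TAATTA, the palindromic core that many other homeodomain proteins recognise, was at 2 of 12 (peaks 2 and 10), against 5.54% of all optimal peaks. In the flanks it was at 0 of 12 on the left and 3 of 12 (25%) on the right for egl-27, against 8.73% and 9.57% for all optimal peaks. TAAT alone was at 12 of 12, against 79.3%, and its shares in the flanks of the egl-27 peaks were 83.3% on the left and 91.7% on the right. Of the inverted pairs of TAAT sites bound by homeodomain dimers, only 1 form was counted, with 3 bases between the sites and C as the first of them. That form was at 0 of 12, against 0.421%. Pairs with another spacing or another base in that place were not counted. TGATNNAT was at 1 of 12 (peak 9), against 5.29%. The motif of GATA zinc finger factors, TGATAA, was at 1 of 12 (peak 4, which held 2 copies), against 6.74%. TTAGGC, the telomere unit, was at 0 of 12 peaks, against 38.4% of all optimal peaks. Matches are letters in a window and not sites of measured binding by any of these factors.

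The shorter run TAATC was counted after the sequences had been seen, because it stood at the summit of peak 2. It was at 9 of the 12 egl-27 peaks (75%), against 55.5% of all optimal peaks. The 9 include peak 2, where the run was first seen, and the 4 peaks with TAATCC, which contains it. The share over all optimal peaks likewise includes peaks with TAATCC. The share at egl-27 is therefore a description and has no test. In the flanks the shares were 16.7% on the left and 33.3% on the right for egl-27, and 28% and 29.5% for all optimal peaks. Outside the cores, TAATC was followed by T in peaks 2, 6, 9, 10 and 11 and by G in peaks 4, 6 and 12. Of these runs only that of peak 2 lay within 10 bp of its summit. Peaks 3, 5 and 7 held no TAATC.

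**Figure D3:**
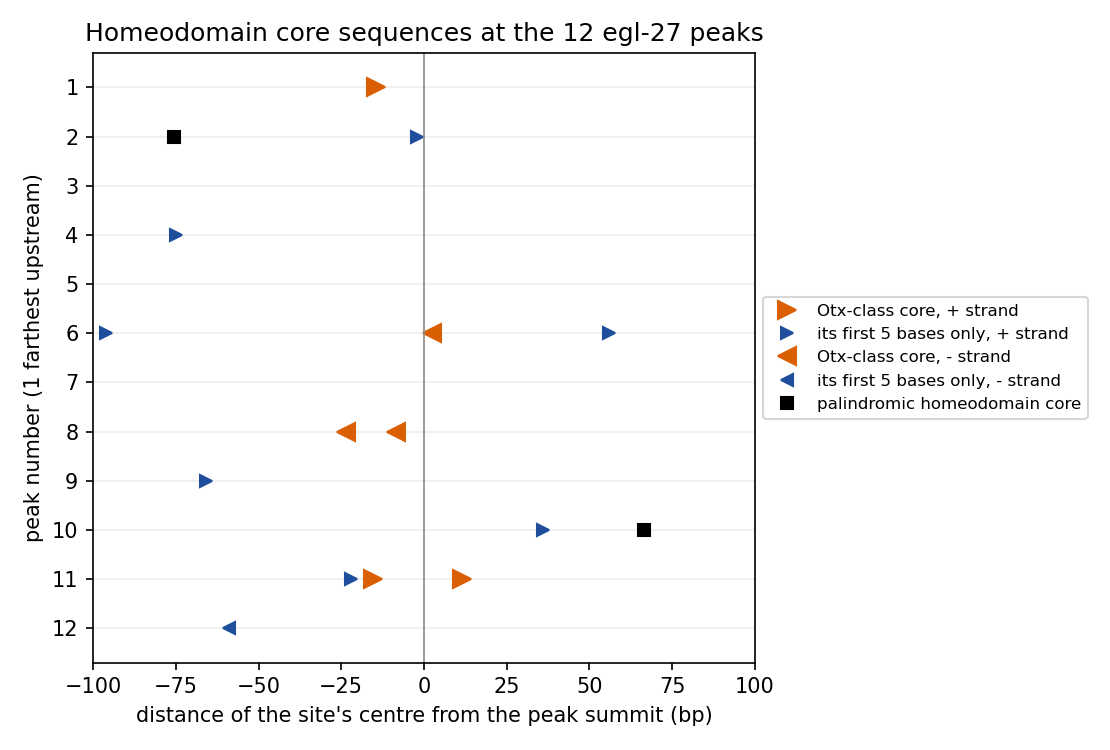
Positions of homeodomain cores at the 12 egl-27 peaks, as the distance of the site's centre from the summit in bp (x axis), with 1 row per peak and triangles pointing along the strand. Orange triangles are the Otx-class core TAATCC, blue triangles its first 5 bases without the last, and black squares the palindrome TAATTA. The 6 orange triangles all lie within 24 bp of the summit, and the squares of peaks 2 and 10 lie farther out.

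The bases around the summits varied. The GC content of the 201 bp window ranged from 31.8% in peak 10 to 56.7% in peak 3, with a median of 43.8%, against 45.3% over the optimal list. Peak 12 lay in coding sequence, where its 61 bp around the summit, printed because this is the only exonic peak, held neither TAATCC nor TAATC.
peak 12, chrII:6846836-6846896: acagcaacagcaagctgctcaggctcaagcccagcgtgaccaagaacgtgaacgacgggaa

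The peaks of egl-27 were spaced 681 to 3713 bp apart, with a median gap of 1682 bp, against 28457 bp between neighbouring nuclear optimal peaks. The smallest gap was between peaks 5 and 6 and the largest between peaks 8 and 9. Beyond the window, the next optimal peaks lay 13536 bp before it, with a signal of 185.3, and 303 bp after it, with a signal of 608.4. The second stands at a tRNA gene, as does the next, 506 bp after the window with a signal of 160.1.

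Few genes had as many summits. Of the 19984 other protein-coding genes, 12 (0.06%) had 12 or more optimal summits in a window drawn the same way, and 30.4% of all protein-coding genes had 1 or more. Of these 12 genes, 11 are mitochondrial, and their windows share the 26 peaks of a genome of 13794 bp with a dense set of tRNA genes. Several mitochondrial summits share an interval, and with each interval counted once only 1 gene, tbc-6, had as many as egl-27. The rule for named genes took 10 of them, of which the annotation gives symbols to COX3, a cytochrome oxidase subunit with 23 summits, and ND1, a NADH dehydrogenase subunit with 15. Mitochondrial signals were high, with medians of 1301 to 1488 at the 11 genes, against 147 at egl-27.

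The twelfth was tbc-6, the gene that follows egl-27 on the same strand. It too had 12 summits, but 10 of them are egl-27 peaks and the other 2 stand at the tRNA gene past the window. The next gene, C04A2.15, had 8 summits, of which 6 are egl-27 peaks. On the other side snt-1 had 1 summit, shared with none. By nearest protein-coding start, peaks 1 to 9 belonged to egl-27 and peaks 10 to 12 to tbc-6, although all 3 of these lie inside egl-27.

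No nuclear gene that shared no peak with egl-27 had as many, and the highest was madd-2, a TRIM-family gene of axon guidance and muscle arm extension, with 9 summits. At madd-2 7 of the 9 summits stood at runs of the telomere unit. Counting only peaks away from telomere-unit runs, tRNA genes and snoRNA genes left egl-27 with 12 summits. The genes with the most after it were then tbc-6 with 10 and C04A2.15 with 6, both sharing peaks with egl-27, and 6 genes that shared none had 5 each, among them epc-1 and pqn-80. Per length of window egl-27 had 3.17 summits per 10 kb, and 13 other genes, tbc-6 and the mitochondrial genes, had as many or more.

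Inside the gene itself egl-27 held 5 summits, and 4 of the 19984 other genes (0.02%) held 5 or more. These were madd-2 with 6, and ZK131.11, lin-29 and unc-51 with 5 each. lin-29 encodes a zinc finger factor of the larval to adult switch and unc-51 a kinase of axon growth and autophagy. In their windows telomere-unit runs accounted for 7 of 9 summits at madd-2, 4 of 5 at ZK131.11, 7 of 7 at lin-29 and 5 of 6 at unc-51, against 0 of 12 at egl-27. Of the 576 other genes at least as long as egl-27, 0 had as many summits in the window and 2 had as many in the gene.

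**Figure D4:**
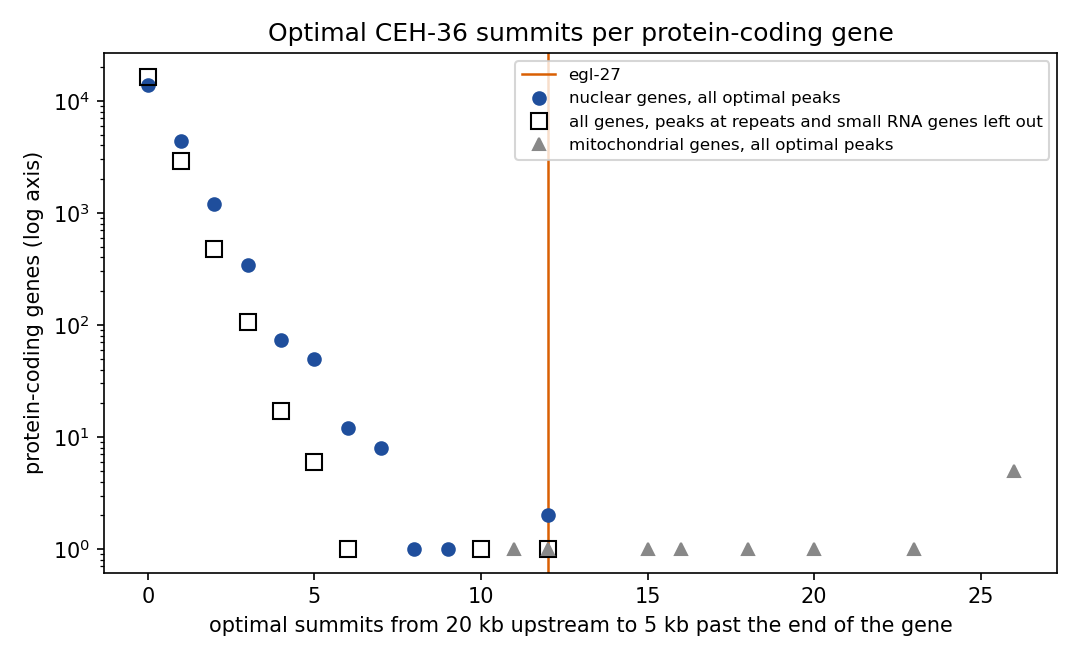
Number of protein-coding genes (y axis, log) by their number of optimal summits from 20 kb upstream to 5 kb past the end (x axis). Circles are nuclear genes and triangles mitochondrial genes over all optimal peaks, and squares are all genes once peaks at telomere repeats and small RNA genes are left out. The line marks egl-27 at 12 summits, and tbc-6, which shares its peaks, is the other nuclear gene there.

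The genes most like egl-27 were sought among those that shared no peak with it, which leaves out tbc-6 and C04A2.15, by the sum of differences in summits over the optimal list and the 1662 strongest entries of replicates 1 and 2, where egl-27 had 12, 14 and 12. All 5 that came first were mitochondrial, among them ND1 and ND6. Among nuclear genes sharing no peak, a choice made after that was seen, the closest was madd-2 with 9, 7 and 8, at a sum of 14. It was followed by lin-29 with 7, 8 and 6 and Y7A9D.1 with 7, 7 and 7, both at 17. Y75B8A.6 with 7, 6 and 7 and zfh-2, a zinc finger homeodomain gene, with 7, 7 and 6 came next at 18. At these 5 genes 0 to 3 summits lay away from repeats and small RNA genes, against 12 at egl-27.

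Genes of a list of NuRD and MEC chromatin complexes and of a patterning list had 0 to 3 summits each. Whether they act with egl-27 was not tested. That is fewer than at egl-27, but egl-27 was picked for its number of peaks. Of 9 genes of NuRD and MEC chromatin complexes, 6 (66.7%) had 1 or more optimal summits in the window, against 30.4% of all protein-coding genes. hda-3, a histone deacetylase, had 3, of which 2 stood at telomere-unit runs. lin-40, the other MTA-family gene, had 1 summit with a signal of 93. chd-3, a remodelling ATPase, had 1 at a small RNA gene, dcp-66 had 1, and the histone-binding genes lin-53 and rba-1, which lie side by side, shared 1. The deacetylase gene hda-1, the ATPase gene let-418 and mep-1 had 0.

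Of 10 genes of Hox and Wnt patterning, 6 (60%) had 1 or more. The Frizzled receptor gene lin-17 and the TCF factor gene pop-1 had 3 each. At lin-17 their median signal was 95.5, near the lowest of the list, 87.2. At pop-1, 1 of the 3 stood at a telomere-unit run. The Wnt gene lin-44 and the caudal-type gene pal-1 had 1 each, and the Hox genes ceh-13 and lin-39, which are neighbours, shared 1 between them. Among the 1662 strongest entries of a replicate, lin-17 had 0 in replicate 2, and ceh-13 and lin-39 had 0 in replicate 1. The windows of pop-1, lin-44 and pal-1 had 1 or more in each replicate. The Hox genes mab-5 and egl-5, the Wnt gene egl-20 and the zinc finger gene tlp-1 had 0. Windows differ in length with the gene, and the median over both lists was 1 summit, against 0 over all protein-coding genes. These counts describe 19 genes and carry no test.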

How the data were processed

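The data were peak lists from chromatin immunoprecipitation of tagged CEH-36 in 2 replicate samples of 1 group. Per the deposited file descriptions, the authors derived each list from alignments of the replicates and a control, and the optimal list by IDR thresholding of the replicate and pooled lists. The aligner and the caller stay unnamed, being not given in the sources used here. The signal per entry is in column 7 and column 9 holds the −log10 of a q-value (neg log10), both deposited as the authors' caller gave them; column 10, deposited as the distance of the summit from the entry's start, gave the summits. Signals served to order entries inside a single list. Depth is unknown, so no interval was computed.

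Summits were placed on the Ensembl release 115 annotation, whose build WBcel235 is ce11, with coordinates counted from 1. The lists on ce10 were not used here. Entries matched when they overlapped by 1 bp or more. Motifs had to lie wholly within 100 bp of the summit, and flanks were the same window shifted by 500 bp. A telomere-unit run was 3 or more copies of TTAGGC, on either strand, within 195 bp of a summit. A small RNA gene peak had its summit at most 500 bp from a tRNA gene, or at most 200 bp from a snoRNA gene.

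Genes were counted over all 19985 protein-coding genes, with summits counted once for each window that held them. The named genes were egl-27, genes at or nearest to its peaks, the 10 genes with the most summits among those with as many that shared no peak, the 5 most like it, and the members of a NuRD and MEC list and a patterning list. The members and lists were chosen with earlier results of these data known. With 1 group no test between conditions was possible, and none was run over the members. Counting functions were tested on simulated data with known answers. Python 3.11.15, numpy 2.4.6 and pandas 2.3.3 were used. In all, 32 alternatives were planned and 2 were added after the data were seen.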

Additional observations from a re-analysis of the deposited data

How the results depend on the processing

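Of 34 alternatives, 22 left the count within 1.5 times its value. The 831 strongest entries of the optimal list gave 7 peaks in the egl-27 window and 2 inside the gene, and the 831 strongest entries of each replicate held 6 of the 12 peaks in place of 10. The 7-base core CTAATCC gave 2 peaks in place of 4 and the shorter TAATC, added later, 9. The flank 1000 bp to the left had 0 peaks with TAATCC in place of 1. The number of other genes with as many summits as egl-27 was 12. It became 4 for the gene alone, where egl-27 itself had 5 summits. From 1500 bp upstream to the end, where egl-27 had 6 summits, it was 6. It was 0 without repeat and small RNA gene peaks and 0 among genes at least as long. It was 1 over distinct intervals and 1 among nuclear genes, the last added later. In these last settings egl-27 kept its 12 summits. Without replicate 1 or without replicate 2, with the strongest entries of the other replicate in place of the optimal list, the window held 12 to 14 peaks, the gene 5 to 7, 4 peaks had the core and 11 other genes had as many, the last 2 values with either replicate left out. No paired analysis was possible because there is 1 group and no result comes from a test.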
